A study of Gorilla gorilla gorilla with 13 samples.

Results

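The 3 libraries of sorted basal intermediate progenitors (bIP) were set against the midpoint between basal radial glia (bRG, 4 libraries) and neurons (N, 2 libraries) on the log scale, so that a gene lying off the straight line between stem cell and neuron could be found. The members of the comparison were these 9 of the 13 libraries of the series, taken by their labels, and no measured value chose them. The other 4 libraries, of apical radial glia (aRG), entered the fit for its estimate of spread and serve here as a further level. All were sorted by flow cytometry from cerebral organoids, cultures that form brain-like tissue in suspension, grown from the gorilla induced pluripotent stem cell line GC1 and collected at week 8 of culture (give or take 3 days). No group carried an added allele or drug treatment that set it apart in the labels, and the neurons were taken as BCL11B+ cells. Each library was made by the Smart-seq2 method from RNA of 10000 cells. The labels do not tie the libraries to separate cultures or differentiations of this single line, so the p-values measure the spread between libraries, which may be technical.

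In the developing cortex, radial glia are the stem cells, and basal intermediate progenitors are their committed, EOMES-expressing daughters, which divide to give excitatory neurons. Cajal-Retzius neurons are a separate, early-born population that settles at the surface of the cortex. They secrete reelin (RELN), which guides migrating neurons, and arise outside the main course of cortical neurogenesis, at the cortical hem and other borders. They are known by RELN together with TP73, LHX1, LHX5, EBF and NHLH factors and the calcium-binding protein CALB2.

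The library check came first. In the 9 libraries total counts ran from 5464721 to 12524938. On the first principal component (1000 most variable genes, 64.2% of their variance), the bIP libraries (30.8 to 32.8) lay beside the neurons (45.6 and 48.1) and away from bRG (-78.2 to -29.1). bRG library 3 stood apart from the other 8 on the second component, at 51.2. The neuron sort antigen BCL11B measured 489 and 271 CPM (counts relative to library size, with TMM scaling) in N, 151 to 241 in bIP and 33.2 to 80.0 in bRG.

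The label of the bIP libraries was only partly borne out by their defining gene. EOMES measured 427, 320, 460 and 260 CPM in bRG libraries 1 to 4, 98.2, 127 and 31.0 in bIP libraries 1 to 3, and 6.74 and 5.78 in N. Each bIP library was below every bRG library and above both neuron libraries. The log2 difference of bIP was -2.11 from bRG (edgeR quasi-likelihood test, Benjamini-Hochberg adjusted p = 0.00617) and 3.77 from N (adjusted p = 0.0334). Against the midpoint EOMES was not called (0.83, SE 0.443, adjusted p = 0.512). The name bIP below therefore stands for the libraries so labelled. In bulk samples, fewer cells of a type and less RNA per cell cannot be told apart.

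Above both ends, bIP was marked by reelin and the Cajal-Retzius transcription factors LHX1, LHX5 and TP73. Of 17 radial glia genes, 7 were called below the midpoint, but the list was near N in bIP (median log2 difference 0.24). Of 16804 genes tested, 281 (1.67%) were called at an adjusted p under 0.05, with 113 (0.672%) above the midpoint and 168 (1.00%) below. At an unadjusted p under that threshold, 899 lay above and 1069 below. The log2 distance from the midpoint ran from 0.90 to 5.24 (median 1.58) among genes called above and from -3.82 to -0.88 (median -1.55) among those called below, while the median over all tested genes was -0.02. In the table counted on the gorilla build gorGor6, 209 of 38520 genes (0.543%) were called, 96 above (0.249%) and 113 below (0.293%). Leaving out 1 library moved the 281 calls to 78 without bIP library 1, 93 without bIP library 2, 147 without bIP library 3, 111 without N library 1, 128 without the unnumbered neuron library and 496 without bRG library 3.

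A call against the midpoint does not by itself place a gene outside the range of the ends, because bIP as a whole lay nearer the neurons. Over the 3321 genes called between N and bRG (1787 higher in N, 10.6%, and 1534 lower, 9.13%), bIP stood at a median of 75.3% of the way from bRG to N (quartiles 58.4% and 90.1%). Among genes called above the midpoint, the bIP mean exceeded both ends for 64, lay between them but nearer N for 46, and lay between them nearer bRG for 3 (EPHA3, ARID5B and FAT1). Among those called below, it was under both ends for 117 and between them nearer N for 51. N was lower than bRG for all 168 genes called below, and higher than bRG for 83 of the 113 called above. No overlap with any bRG or N library was seen in 44 of the 113 and in 52 of the 168; over all tested genes such separation was found for 225 (1.34%) above and 398 (2.37%) below, and the calls and the separation rest on the same values.

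**Figure D1:**
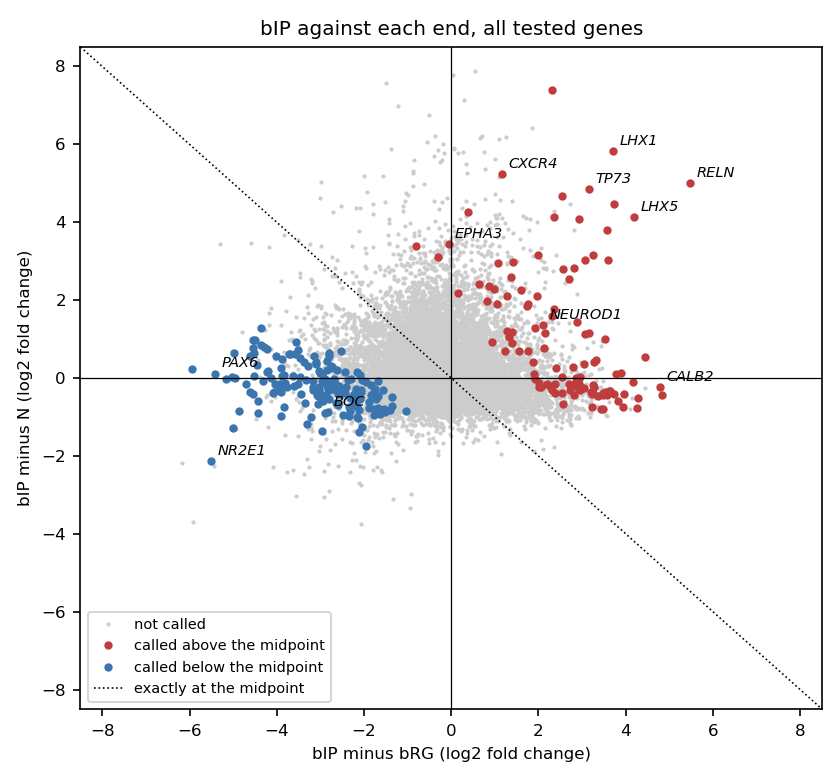
Log2 fold change of bIP against bRG (horizontal axis) and against N (vertical axis) for each of the 16804 tested genes, with the 113 genes called above the midpoint in red, the 168 called below in blue and all others in grey; the dotted line marks genes exactly at the midpoint. RELN, LHX1, TP73 and LHX5 lie far into the upper right, higher in bIP than in both ends, and most blue points lie near the horizontal line, where bIP equals N.

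Being beyond both ends was tested by itself, by the larger of the p-values of bIP against bRG and bIP against N where these had the same sign. In this test 4 genes (0.0238%) were called, RELN (adjusted p = 0.00666), LHX1 (0.00862), TP73 (0.0136) and LHX5 (0.0352), all higher in bIP. At an unadjusted p under 0.05 there were 83 genes above both ends and 76 below both. The end at N was the limiting one: 19 genes (0.113%) were called higher in bIP than in N and 0 lower (348 lower at an unadjusted p under 0.05, and 3 lower by DESeq2), whereas 1386 (8.25%) were called higher and 1418 (8.44%) lower than in bRG. The 4 calls became 1 (RELN) without bRG library 1, bRG library 4, bIP library 1 or bIP library 2, 2 (LHX1 and TP73) without N library 1, 0 without the unnumbered neuron library and 8 without bRG library 3.

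RELN, the secreted glycoprotein of Cajal-Retzius neurons, lay farthest above the midpoint. It measured 3050, 2047 and 1048 CPM in bIP libraries 1 to 3, against 40.2, 72.0, 23.0 and 48.3 in bRG and 73.2 and 54.9 in N. The lowest bIP library was far above the highest bRG or N library, and aRG was also low, at 21.8 to 71.7 CPM. The distance from the midpoint was 5.24 on the log2 scale (SE 0.448, adjusted p = 1.74e-05), with 5.48 against bRG and 5.00 against N.

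The LIM-homeodomain factors LHX5 and LHX1, which are expressed in Cajal-Retzius neurons and in other early neurons of the brain, followed the same order. LHX5 measured 129, 124 and 48.6 CPM in bIP, 4.96, 5.12, 8.61 and 3.33 in bRG, and 6.99 and 4.48 in N (log2 distance 4.16, SE 0.462, adjusted p = 1.24e-04). LHX1 measured 67.9, 72.3 and 23.7 CPM in bIP, 3.76, 3.45, 6.72 and 2.76 in bRG, and 1.59 and 0.373 in N (4.77, SE 0.503, adjusted p = 1.08e-04). For both genes the lowest bIP library was above all others. These were the 2 called of 18 genes tested in the list of LIM homeobox and LIM-only factors, beside 0.672% called above over all tested genes. The list's median was 0.13.

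TP73, a p53-family transcription factor that Cajal-Retzius neurons express and need, measured 84.95, 93.2 and 35.1 CPM in bIP, 8.89, 10.5, 7.07 and 5.23 in bRG, and 4.17 and 0.840 in N. The groups did not overlap, and the log2 distance was 4.01 (SE 0.448, adjusted p = 1.24e-04). In the gorGor6 table TP73 held 123 counts over the libraries, against 2455 in the hg38 table, and was not called there (1.04, adjusted p = 0.912). It was the only call among 16 genes of the p53 family and its targets, whose median was -0.06. WRAP73, the neighbour of TP73 in the RefSeq gorilla annotation, was also called above (0.96, adjusted p = 0.0212).

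Across the Cajal-Retzius list, 8 of 10 tested genes were called above the midpoint, beside 0.672% over all tested genes. None was called below (also none at an unadjusted p under 0.05 or by DESeq2). The list's median log2 distance was 3.47, against -0.02 over all genes. The list was written with earlier results of these data known, so its count is a description. It fell to 5 without bIP library 1 or either neuron library, and some of its genes also stand in the lists of LIM, EBF, chemokine and newborn neuron genes. NHLH2, a basic helix-loop-helix factor of newborn neurons, measured 183, 233 and 56.2 CPM in bIP, 14.0, 26.5, 0.472 and 12.3 in bRG, and 14.1 and 8.58 in N (3.68, adjusted p = 0.00972). EBF3, an early B-cell factor family member active in differentiating neurons, measured 62.9, 68.4 and 21.5 CPM in bIP, 2.95 to 18.5 in bRG, and 2.57 and 3.17 in N (3.25, adjusted p = 0.01001). In both, bIP did not overlap the ends. Their calls ended without bIP library 1, bIP library 2 or either neuron library, with adjusted p up to 0.0943 for NHLH2 and 0.0915 for EBF3.

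The remaining list genes departed from this pattern in different ways. CXCR4, the chemokine receptor used by migrating Cajal-Retzius neurons and other neuroblasts, measured 118, 99.0 and 37.9 CPM in bIP, 26.7, 28.6, 58.5 and 36.4 in bRG, and 1.23 and 3.17 in N, so that bIP overlapped bRG while both lay above N (3.20, adjusted p = 4.31e-04). CALB2, which encodes calretinin, overlapped between N (149 and 137 CPM) and bIP (129, 83.9 and 153) and was low in bRG (1.81 to 9.90). Its distance from the midpoint of 2.28 (adjusted p = 0.0213) thus came with a difference from N of -0.23 (adjusted p = 0.972), and the call ended without bIP library 1, bIP library 3 or either neuron library (adjusted p up to 0.125). EBF2 (1.93, adjusted p = 0.243) and NDNF (1.25, adjusted p = 0.469) were not called.

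**Figure D2:**
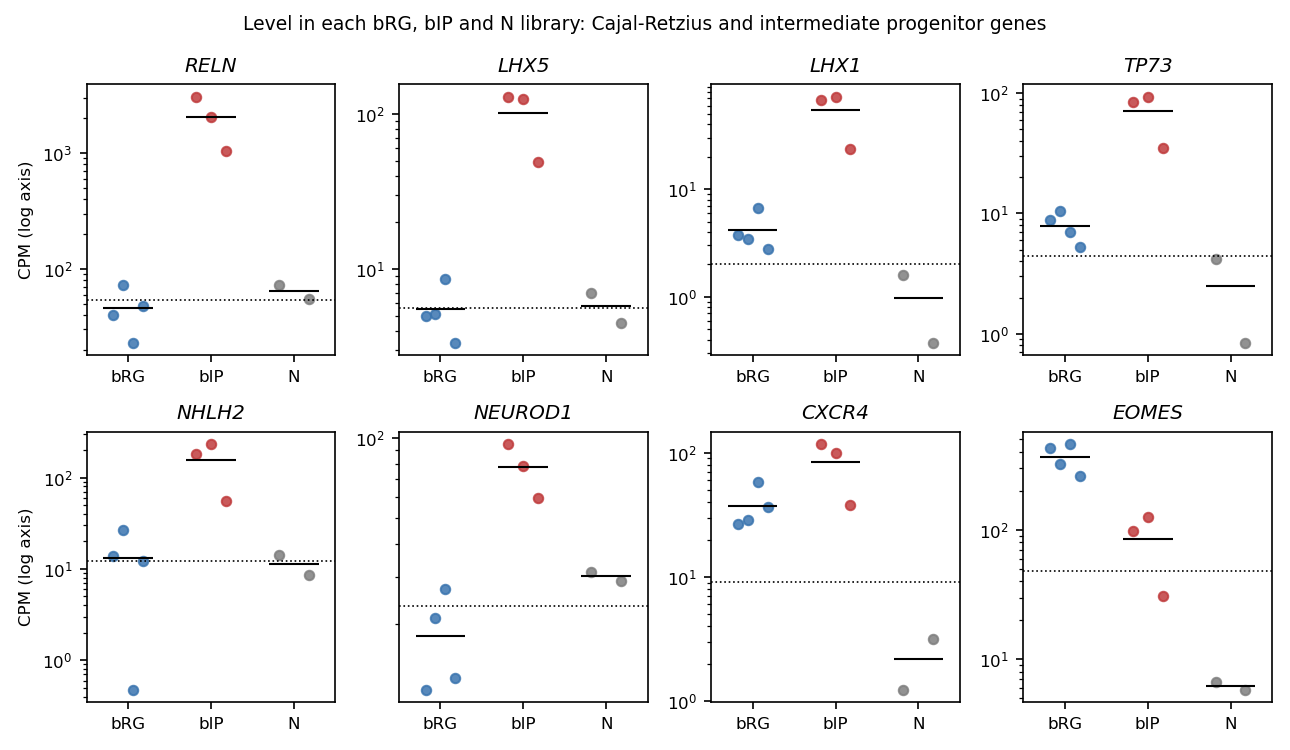
CPM (log axis) of 8 genes in each bRG, bIP and N library, with 1 point per library, a bar at the group mean and a dotted line midway, on the log scale, between the bRG and N means. RELN, LHX5, LHX1, TP73, NHLH2 and NEUROD1 have every bIP library above all bRG and N libraries; CXCR4 overlaps bRG, and EOMES falls from bRG through bIP to N.

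The 3 bIP libraries did not hold these genes at 1 level. Library 3 was the lowest for RELN (51.1% of the bIP mean), TP73 (49.4%), LHX5 (48.3%), CXCR4 (44.7%), LHX1 (43.4%), EBF3 (42.2%) and NHLH2 (35.7%). CALB2 went the other way, with library 3 at 125% of the mean. Summed over the 10 list genes, bIP libraries held 1452 to 3866 CPM, against 120 to 218 in bRG, 215 to 261 in N and 119 to 237 in aRG. Most of the bIP sum was RELN, which averaged 2048 of 2727 CPM. Among the 44 genes called above with no overlap, library 3 was the lowest bIP library for 36. Among the 52 called below with no overlap, library 3 was the highest for 25 and the lowest for 13. Libraries 1 and 2 were the highest for 10 and 17 of those 52. EOMES was also lowest in library 3. RELN, LHX5, LHX1, TP73 and CXCR4 stayed called without any 1 of the 9 libraries.

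**Figure D3:**
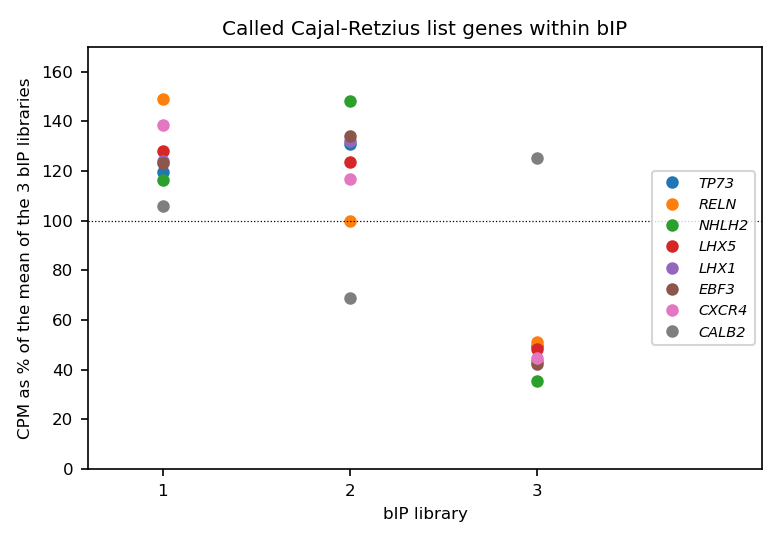
CPM in each bIP library as a percentage of the mean of the 3 bIP libraries, for the 8 called genes of the Cajal-Retzius list, with the dotted line at 100%. All but CALB2 lie between 35.7% and 51.1% in library 3.

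Of 19 intermediate progenitor genes tested, NEUROD1 was called above and DLL1 below (10.5%, beside 1.67% over all tested genes). The list's median was -0.19. NEUROD1, a proneural factor switched on as progenitors commit to neurons, measured 95.0, 78.6 and 59.4 CPM in bIP, 11.3, 21.1, 27.0 and 12.6 in bRG, and 31.5 and 29.1 in N. The groups did not overlap, and the distance was 1.73 (SE 0.377, adjusted p = 0.0240), with 2.11 against bRG (adjusted p = 0.00143) and 1.36 against N (adjusted p = 0.593). This call ended without bIP library 1, bIP library 2 or either neuron library, with log2 distances of 1.56 to 1.89 and adjusted p up to 0.167 over the libraries left out.

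DLL1, a ligand that activates Notch in neighbouring cells, was lowest in bIP, at 63.8, 73.8 and 112 CPM, against 241, 167, 189 and 360 in bRG and 148 and 159 in N (-1.20, adjusted p = 0.0434). It was called in 3 of the 9 fits that left out a library and not in the gorGor6 table (adjusted p = 0.113). Against bRG, 7 of the 19 intermediate progenitor genes were called lower in bIP and 2 higher, beside 8.44% lower and 8.25% higher over all tested genes. Among the lower ones, NEUROG1 (-3.52, adjusted p = 0.00510) and NEUROD4 (-3.31, adjusted p = 0.00356) are proneural factors, and SSTR2, a somatostatin receptor, was one of the higher (0.92, adjusted p = 0.0257). The list's summed level was 997 to 1580 CPM in bIP, 1462 to 1827 in bRG and 1315 to 1382 in N.

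SVEP1, CNTNAP5 and PGF, which act outside the cell or at its surface, were also highest in bIP. SVEP1, a large extracellular adhesion protein, measured 327, 270 and 126 CPM in bIP, 16.4, 22.1, 0.354 and 33.5 in bRG, and 10.3 and 11.3 in N (4.10, adjusted p = 0.00301). CNTNAP5, a contactin-associated membrane protein, measured 118, 90.9 and 60.0 CPM in bIP, 8.37 to 20.6 in bRG, and 12.5 and 12.8 in N (2.82, adjusted p = 7.27e-04). PGF, a growth factor of the VEGF family, measured 66.3, 94.7 and 29.3 CPM in bIP, 9.33 to 18.9 in bRG, and 9.31 and 4.94 in N (2.57, adjusted p = 0.00235). The naming rule took these 3 genes for having no overlap between bIP and the ends, so that is no separate result. All 3 stayed called whichever library was left out.

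ACKR1, an atypical receptor that binds chemokines without signalling through G proteins, measured 190, 192 and 62.4 CPM in bIP, 7.01 to 29.7 in bRG and 54.2 in both N libraries (2.17, adjusted p = 0.0254). With CXCR4 it made 2 of 8 chemokine genes called above, beside 0.672% over all tested genes. LRRC4C (a netrin-G ligand, 1.93), BAIAP3 (a regulator of dense-core vesicle release, 1.89) and SCG2 (secretogranin II, 1.83) were likewise called, at adjusted p of 0.00983 to 0.0238. The naming rule took these genes and ACKR1 for having no overlap. All 4 of these calls ended without bIP library 1, bIP library 2 or either neuron library. That of ACKR1 also ended without bRG library 4, and the largest adjusted p was 0.281, for SCG2. Of 13 reelin receptors and signalling partners, which act in the cells that receive reelin, none was called (2 above and 0 below at an unadjusted p under 0.05, and none by DESeq2), with a median of 0.04.

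Where bIP lay between the ends, and counting only officially named genes called at an average level (log2 CPM) of 4 or more, CALB2, BICDL1, CAMK2B, SLITRK1 and CAMKV lay farthest above the midpoint, each with bIP nearer N than bRG. CAMK2B, a subunit of the calcium-dependent kinase of synapses, measured 253, 260 and 224 CPM in bIP, 7.42 to 16.7 in bRG, and 374 and 324 in N (1.89, adjusted p = 0.00440). Its difference from N was -0.51 (adjusted p = 0.888). SLITRK1, a synaptic adhesion protein (1.77), CAMKV, a kinase-like synaptic protein (1.74), and BICDL1, a dynein adaptor (2.04), also lay between the ends and differed from N by -0.76 to -0.09. CAMK2B and CAMKV stayed called whichever library was left out. The call of SLITRK1 ended without bIP library 3 or N library 1 (adjusted p up to 0.0558), and that of BICDL1 without any 1 of the bIP or neuron libraries (up to 0.106).

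By list, 2 of 16 pan-neuronal genes (MAPT, which encodes tau, 1.20, and CAMK2B) and 2 of 14 of glutamatergic transmission (GRIA2, an AMPA receptor subunit, 1.61, and SLC17A6, a vesicular glutamate transporter, 2.06) were called above and 0 below (also 0 below at an unadjusted p under 0.05 and by DESeq2). The medians were 0.71 and 0.58, and the share called above over all tested genes was 0.672%. SLC17A6 differed from the others in peaking in bIP, at 33.3, 44.1 and 34.9 CPM against 4.09 to 13.3 in bRG and 9.80 and 12.1 in N. The calls of MAPT, GRIA2 and SLC17A6 each ended without bIP library 1, bIP library 2 or either neuron library, and all but that of MAPT without bIP library 3, with adjusted p up to 0.170.

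On the low side, BOC, FGFR2 and FGFBP3 were under both ends in bIP. BOC, a co-receptor for Sonic hedgehog, measured 85.7, 85.6 and 105 CPM in bIP, 723, 605, 602 and 692 in bRG, and 173 and 166 in N. The groups did not overlap, and the distance was -1.86 (SE 0.206, adjusted p = 1.24e-04), with -2.83 against bRG (adjusted p = 2.75e-07) and -0.88 against N (adjusted p = 0.276). FGFR2, a fibroblast growth factor receptor, measured 26.1, 35.9 and 43.9 CPM in bIP, 160 to 403 in bRG, and 52.3 and 54.6 in N (-1.77, adjusted p = 0.00370). FGFBP3, which binds fibroblast growth factors, measured 35.1, 22.9 and 25.3 CPM in bIP, 133 to 764 in bRG, and 52.0 and 57.5 in N (-2.45, adjusted p = 0.00736).

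Chosen after their values were seen, FGFR3 (-1.65, adjusted p = 0.00106) and CDON, the paralog of BOC (-1.24, adjusted p = 0.0478), were also called below with no overlap. No list of these pathways was tested.

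The other 7 genes that the naming rule took on the low side were, like BOC, FGFR2 and FGFBP3, lowest in bIP because the rule asks for it. PLCE1, a phospholipase C that responds to Ras, measured 47.8, 41.6 and 52.2 CPM in bIP, 346 to 663 in bRG, and 78.2 and 67.7 in N (-1.99, adjusted p = 3.92e-04). SCARA3, a scavenger receptor family member, measured 12.2, 13.1 and 9.80 CPM in bIP, 74.97 to 133 in bRG, and 25.6 and 21.3 in N (-2.11, adjusted p = 4.65e-04). CDCA7, a chromatin protein of dividing cells (-2.16), PREX2, a Rac exchange factor (-2.13), TBC1D1, a Rab GTPase-activating protein (-1.70), AASS, an enzyme of lysine breakdown (-1.66), and TTYH1, a membrane protein of radial glia (-1.66), completed the genes with no overlap, at adjusted p of 4.65e-04 to 0.00762. The call of AASS ended without bIP library 1 or 2 (adjusted p up to 0.0802) and that of FGFBP3 without bIP library 2 (0.0662). Against N alone none of the 10 was called, with differences of -1.36 to -0.35.

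**Figure D4:**
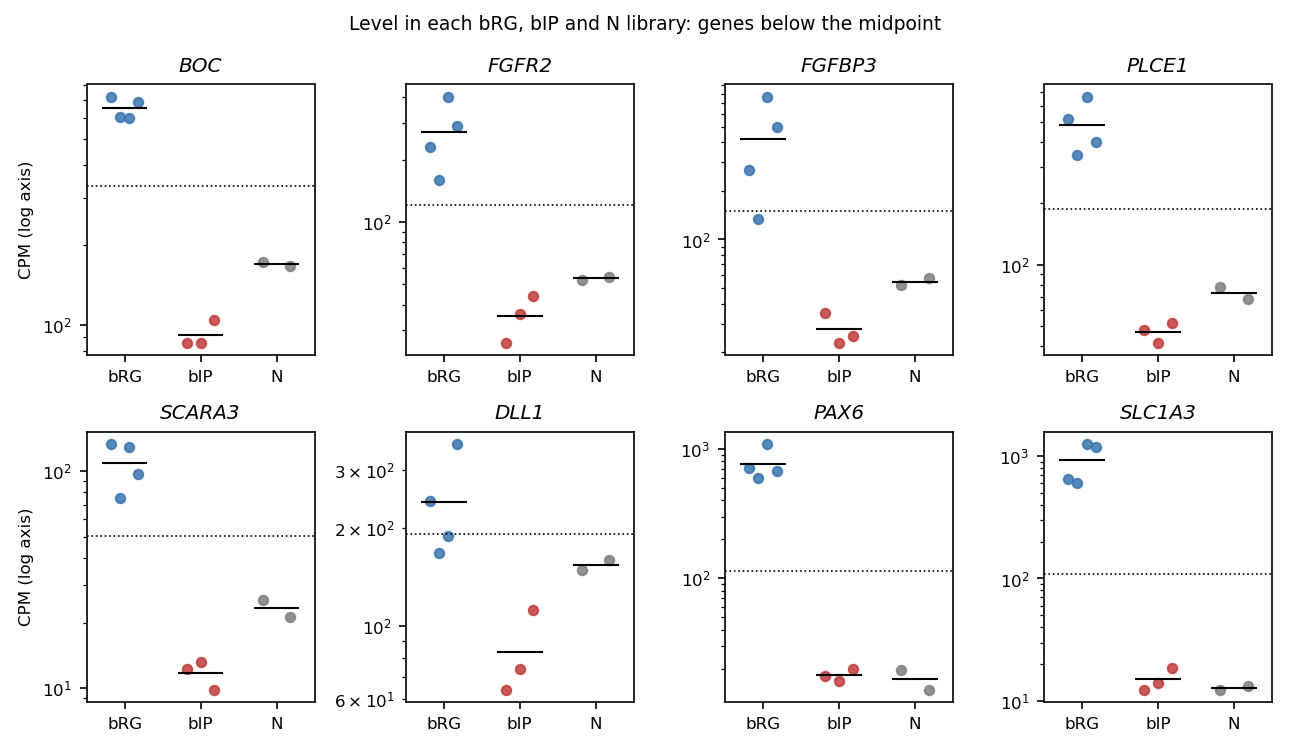
CPM (log axis) of 8 genes called below the midpoint in each bRG, bIP and N library, with 1 point per library, a bar at the group mean and a dotted line midway, on the log scale, between the bRG and N means. BOC, FGFR2, FGFBP3, PLCE1, SCARA3 and DLL1 have every bIP library under both neuron libraries, whereas PAX6 and SLC1A3 overlap N.

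Of 17 radial glia identity genes tested, 7 were called below the midpoint (VIM, SOX2, SLC1A3, PAX6, NOTCH1, HES5 and GLI3), beside 1.00% over all tested genes. None was called above (also 0 at an unadjusted p under 0.05 and by DESeq2), and the list's median was -1.25. The 7 became 4 without bIP library 3. The summed level of the list was 972 to 1127 CPM in bIP, 1540 and 1663 in N and 4232 to 7278 in bRG, so every bIP library was under both N libraries in this sum. Gene by gene this did not hold, as the median log2 difference of bIP from N was 0.24. None of the list's genes was called lower in bIP than in N, and none had every bIP library under all bRG and N libraries. PAX6, a transcription factor of cortical progenitors, measured 17.8, 16.2 and 20.1 CPM in bIP, 713, 598, 1088 and 673 in bRG, and 19.7 and 13.7 in N (-2.65, adjusted p = 1.08e-04). SLC1A3, the glial glutamate transporter, measured 12.4, 14.1 and 18.6 CPM in bIP, 601 to 1253 in bRG, and 12.3 and 13.2 in N (-2.85, adjusted p = 1.24e-04). Both overlapped N and were far under bRG. GLI3, a transcription factor of the hedgehog pathway, was called at -2.47 (adjusted p = 1.07e-04). SOX2, a stem cell factor, was called at -1.75 (adjusted p = 0.0341) but in 4 of the 9 fits that left out a library and not in the gorGor6 table.

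In the basal radial glia list, MOXD1 (a monooxygenase-like protein, -1.49) and BCAN (the matrix proteoglycan brevican, -1.73) were called below among 16 genes. The share called below over all tested genes was 1.00%. In this list 0 were called above (also 0 at an unadjusted p under 0.05 and by DESeq2). CREB5, a transcription factor of the CREB family (-2.06, adjusted p = 0.00674), and HTRA1, a secreted serine protease (-2.04, adjusted p = 0.00588), also lay between the ends, nearer N. CREB5 lost its call without bIP library 1 and HTRA1 without bIP library 1 or 2, with adjusted p up to 0.0721 and 0.0588. MOXD1 was called in 3 and BCAN in 5 of the 9 fits without a library.

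Proliferation genes were called on the low side only, at bIP levels near N. Of 30 G2/M genes 7 were called below and 0 above, with a median of -0.87. Of 27 S-phase genes 4 were called below and 0 above, with a median of -0.68 (0 above in either list at an unadjusted p under 0.05 and by DESeq2). Over all tested genes 1.00% were called below and 0.672% above. The median log2 difference of bIP from N was 0.45 for G2/M and 0.06 for S phase, and none of these genes was called lower in bIP than in N. The 7 G2/M calls became 2, 4 and 3 without bIP libraries 1, 2 and 3, and 4 without N library 1. MKI67, the proliferation antigen, measured 10.3, 24.2 and 7.46 CPM in bIP, 248 to 460 in bRG, and 12.0 and 15.0 in N (-2.24, adjusted p = 0.00449). The bIP libraries spanned the neuron values, and the call ended without bIP library 1 (adjusted p = 0.0518). SMC4, a condensin subunit, was called at -1.46 (adjusted p = 0.00440) and MCM3, a subunit of the replication helicase, at -1.13 (adjusted p = 0.0192). Summed over the G2/M list, bIP held 318 to 365 CPM, N 286 and 312, and bRG 1825 to 2714.

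Of 22 Notch pathway genes, 4 were called below (NOTCH3, NOTCH1, HES5 and DLL1) and 1 above (JAG2), with a median of -0.78. Over all tested genes 1.00% were called below and 0.672% above. NOTCH3, a receptor, measured 16.7, 22.1 and 11.1 CPM in bIP, 175 to 240 in bRG, and 18.4 and 14.0 in N (-1.79, adjusted p = 0.00138). JAG2, a ligand, measured 221, 243 and 237 CPM in bIP, 41.1 to 61.2 in bRG, and 319 and 223 in N (1.03, adjusted p = 0.0297). The ligands DLL1 and JAG2 were thus called on opposite sides, DLL1 with bIP under both ends and JAG2 with bIP overlapping N. JAG2 was called in 3 and NOTCH1 in 6 of the 9 fits without a library.

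Of 30 Wnt pathway genes, 3 were called below (TCF7L1, SFRP1 and FZD2) and 1 above, with a median of -0.24. The shares over all tested genes were 1.00% below and 0.672% above. SFRP1, a secreted Wnt inhibitor, measured 15.4, 17.3 and 19.9 CPM in bIP, 175 to 786 in bRG, and 20.7 and 14.6 in N (-2.48, adjusted p = 0.00449). CXXC4, an inhibitor of Wnt signalling, was the gene above, at 45.5, 58.5 and 19.4 CPM in bIP, 19.0 to 52.7 in bRG, and 2.21 and 2.05 in N (2.33, adjusted p = 0.00396). It overlapped bRG, as did EPHA3, an ephrin receptor, at 182, 210 and 80.2 CPM in bIP, 105 to 261 in bRG, and 17.2 and 11.9 in N (1.69, adjusted p = 0.00676). For these 2 genes every bIP and bRG library was above both N libraries. EPHA3 lost its call without bIP library 1, bIP library 2 or the unnumbered neuron library (adjusted p up to 0.0662).

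**Figure D5:**
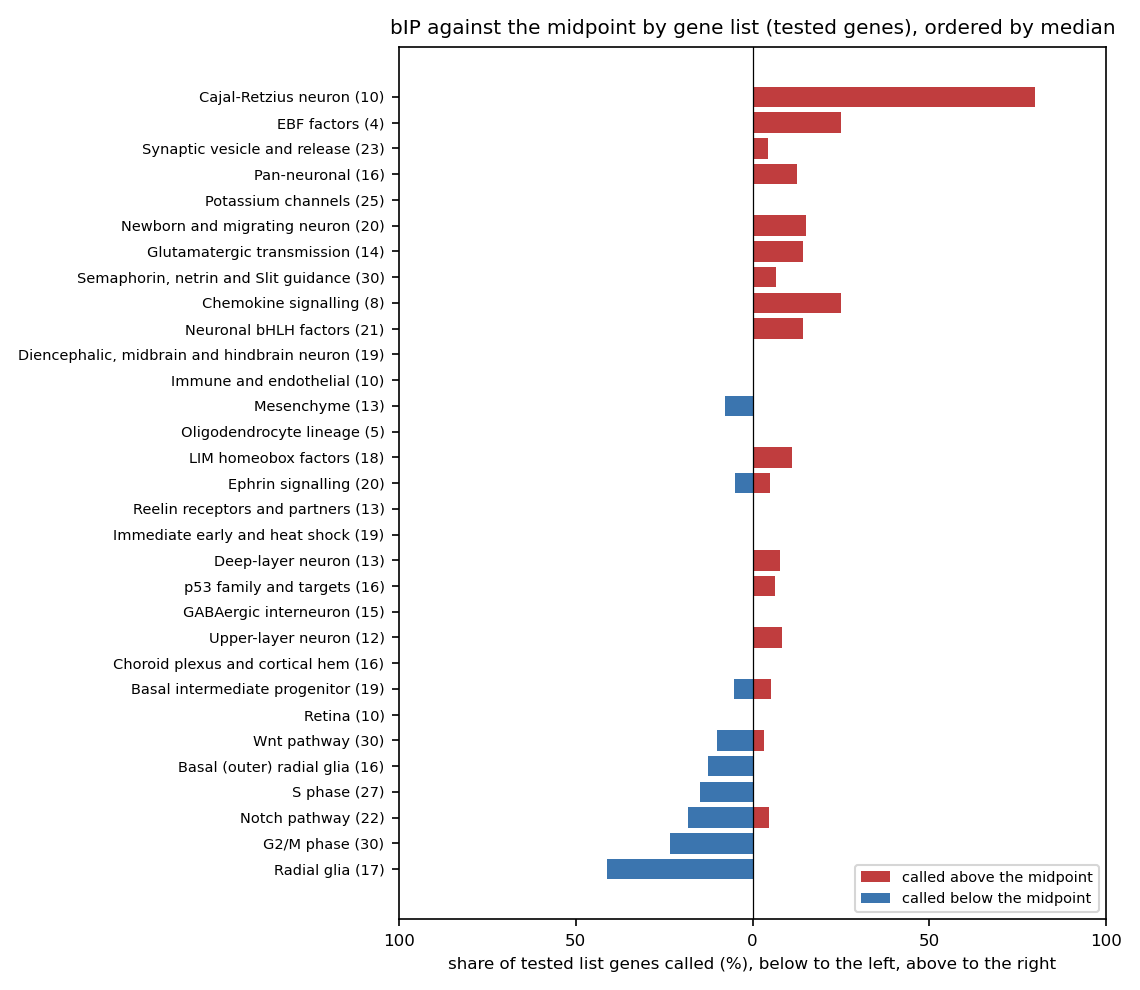
Share of the tested genes of each of the 31 lists that were called above (red, right) or below (blue, left) the midpoint, ordered by the list's median distance, with the number tested in brackets. The Cajal-Retzius list stands at the top with 8 of 10 called above, and the radial glia list at the bottom with 7 of 17 called below.

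Markers of other cells were read in the same way. Of 15 GABAergic interneuron genes, 19 of diencephalic, midbrain and hindbrain neurons, 10 of retina, 16 of choroid plexus and cortical hem, 5 of the oligodendrocyte lineage and 10 immune and endothelial genes, 0 were called. The share called over all tested genes was 1.67%. At an unadjusted p under 0.05, 1, 2, 1, 2, 0 and 0 of them lay above and 0, 0, 0, 1, 0 and 1 below. DESeq2 called 1, 1, 0, 1, 0 and 0 above and 0, 0, 0, 1, 0 and 0 below. Against N alone, the retina list and the choroid plexus and hem list, which share OTX2, each held 1 gene called higher in bIP. Over all tested genes that share was 0.113%. Of 13 mesenchymal genes, PDGFRB was called below (-1.23, adjusted p = 0.0324), in 3 of the 9 fits without a library. The summed GABAergic level was 58.5 to 92.9 CPM in bIP, 182 to 278 in bRG and 27.8 to 27.9 in N, with NKX2-1, LHX6 and SLC32A1 under 1 CPM on average in bIP. That of diencephalic, midbrain and hindbrain neurons, some of which also express LHX1 and LHX5, was 77.5 to 101 CPM in bIP, 123 to 180 in bRG and 50.1 to 60.8 in N, with POU4F1 and FOXA2 under 1 CPM on average in bIP. The genes named as low were picked from their lists for that. By median, the diencephalic, midbrain and hindbrain genes lay 0.29 from the midpoint and 0.72 above N. The GABAergic genes lay -0.10 from the midpoint and 1.10 above N. The choroid plexus and hem list summed to 370 to 518 CPM in bIP, 459 to 1831 in bRG and 322 to 538 in N.

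Since bIP stood nearer N for most genes, the test was repeated at the point 75% of the way from bRG to N. There 22 of the 16804 tested genes were called, 17 above and 5 below, and all 22 were among the 281. LHX1 (5.29), RELN (5.12), TP73 (4.43), SVEP1 (4.29), CXCR4 (4.22) and LHX5 (4.15) led the high side. NEUROD1, NHLH2, EBF3 and CALB2 were not called at this point. The low side held PLCE1 (-1.31), BOC (-1.37), GLI3 (-1.44), SCARA3 (-1.55) and NR2E1 (-2.98), a nuclear receptor that maintains neural stem cells.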

How the data were processed

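Counts are as the authors deposited them, raw and not normalized, in 2 tables with 1 column per library: hg38 (18137 genes) and gorGor6 (60583 named genes). The submitters' processing notes name STAR and hg38 without role or version; no label or header gives the annotation, counter or strand use, which leaves overlapping genes and paralogs uncertain. A neuron column whose number no label bears was used as the unnumbered neuron library. A gorGor6 row with no name (0.00351% to 0.00768% of counts) was left out.

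The hg38 counts were fitted with edgeR 4.0.16 in R 4.3.3 (quasi-likelihood F-test, TMM scaling, filterByExpr with a minimum count of 10), all 13 libraries in 1 fit. The contrast was bIP minus 0.5 bRG minus 0.5 N, Benjamini-Hochberg adjusted over 16804 genes. Levels are CPM with TMM scaling. The gene lists (31) and members were chosen with earlier results of these data known. Named genes were RELN, LHX5 and NEUROD1; the 10 largest distances on each side among called genes with an official symbol, a mean log2 CPM of at least 4 and no overlap; the 5 largest on each side with bIP between the ends; and up to 4 smallest-p members of each list described. Other genes named were chosen after their values were seen. Alternatives were DESeq2 1.42.0, its size factors, no filter, gorGor6, the 9 libraries alone, a replicate block, limma 3.58.1 voom, other points on the line, subsets of bRG and each library left out. The scripts were also run on simulated data. Pairs of libraries within a group differed by a chi-square per degree of freedom of 10.6 to 92.4, so none was treated as a duplicate. No sequence was used. Some called genes are not reported here.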

Additional observations from a re-analysis of the deposited data

Results flagged for a closer look

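PGF stood out for 1 library far from the others of its group: bRG library 4 measured 9.33 CPM, while the other 3 bRG libraries lay between 17.9 and 18.9. TTYH1 did so in bRG library 1, at 1289 CPM against 876 to 914 in the others. The threshold for naming such a gap is passed by chance in about 1 in 20 groups.

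Some genes outside the hg38 table were also called, at a lower rate than over the whole gorGor6 table. Among 22129 genes tested in the gorGor6 table that have no hg38 row, 30 were called against the midpoint by edgeR, 13 above and 17 below, beside 209 of 38520 (0.543%) over that whole table.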

How the results depend on the processing

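All 281 called genes kept their side of the midpoint in every hg38 fit, and 277 of the 278 tested did in gorGor6; their number was less stable. DESeq2 called 682 (291 above, 391 below; 8 beyond both ends, and 169 between bIP and N), voom with quality weights 907 (532, 375; 10 beyond), bRG libraries 3 and 4 alone 614 (275, 339; 1 beyond) and bRG libraries 1 and 2 alone 192 above. A point nearer N gave 22 (17, 5) and one nearer bRG 1610 (781, 829). The 9 libraries alone gave 99 below, and gorGor6 2 beyond both ends. The split between above and below was 40.2% above in the reported fit, 58.7% with voom and 49.7% with the 9 libraries alone. Leaving out each library gave 78 to 496 calls (24 to 244 above, 52 to 252 below), 0 to 8 beyond both ends, 5 to 8 Cajal-Retzius, 4 to 9 radial glia and 2 to 7 G2/M genes; 54 genes (16 above, 38 below) were called in all 9. The cause of these differences was not tested.

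Same-numbered libraries were only weakly correlated (0.0327 to 0.150), and the numbers were not read as pairs. Between groups, libraries numbered 1 and 2 were positively correlated throughout (0.0327 to 0.193), as were those numbered 3 and 4 (0.117 and 0.131). Across these 2 sets every correlation was negative (-0.260 to -0.0277). bIP library 3 belongs to the second set. The unnumbered neuron library was not included, and the cause of this split was not tested. With the replicate number as a block, 217 genes were called, 69 above and 148 below (31.8% above), and 1 was beyond both ends; NEUROD1 (1.60, edgeR adjusted p = 0.122), ACKR1, BAIAP3, SCG2, CALB2, BICDL1 and HTRA1 were then not called. Of the 281 called genes, 62 had a mean log2 CPM under 4, where counting error weighs most.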

Other observations

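Among genes counted only in the gorGor6 table, LHX1-DT, the transcript divergent from LHX1, had the pattern of its neighbour, at a log2 distance of 4.85 from the midpoint (edgeR adjusted p = 0.00102). It averaged 79.7 CPM in bIP, 3.00 in bRG and 2.55 in N. TENM1, a teneurin adhesion protein encoded on the X chromosome, averaged 78.5 ± 15.5 CPM in bIP, 6.24 ± 0.861 in bRG and 28.4 ± 4.63 in N (SD, n = 3, 4 and 2), a distance of 2.56 (adjusted p = 9.78e-05). RMST, a long noncoding RNA of neurogenesis, averaged 35.8 CPM in bIP, 14.4 in bRG and 2.67 in N (2.52, adjusted p = 0.00420), and MIR137HG, the host transcript of a neuronal microRNA, 88.1, 4.10 and 108 (2.06, adjusted p = 0.0178). These genes were chosen after their values were seen.

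On the low side, the X-linked genes COL4A5, a basement membrane collagen (-2.29, adjusted p = 0.0108), and GPC4, a glypican (-1.84, adjusted p = 0.0156), were near their neuron level in bIP, at 13.8 and 7.32 CPM against 11.0 and 7.30 in N. MIR9-3HG, a host transcript of the progenitor microRNA miR-9, averaged 116 CPM in bIP, 726 in bRG and 100.2 in N (-1.22, adjusted p = 0.0496). CEROX1, a noncoding RNA, averaged 8.12 CPM in bIP, 44.3 in bRG and 24.0 in N (-2.005, adjusted p = 0.0115), under both ends.

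Of the genes called in hg38, 278 were tested in the gorGor6 table and 172 were called there too. Pairs of neighbouring genes called on the same side were TP73 with WRAP73, CXCR4 with THSD7B and CPNE6 with CARMIL3 above, and among others CLU with SCARA3, TRDMT1 with VIM and ELP4 with PAX6 below.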
